A study of Mus musculus with 18 samples.

Results

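H3K27me3 was examined at 10 transcription factor genes that mark or build the lateral and caudal ganglionic eminences (LGE and CGE), in the neighbouring medial ganglionic eminence (MGE) of the mouse embryo: Gsx1, Gsx2, Ebf1, Meis1, Meis2, Nr2f1, Nr2f2, Sp8, Sp9 and Prox1. They are 10 of 21631 protein-coding genes, chosen by name. For each gene every deposited interval that overlapped the gene body or 2500 bp on either side of it (assembly GRCm38) was taken. Bulk CUT&Tag, which tethers a transposase to an antibody so that DNA beside the antibody's target is tagged and sequenced, was run on MGE nuclei at the embryonic stages E12.5 and E15.5. Each stage has 3 libraries labelled WT and 3 labelled KO for Ezh2; 6 Het samples, of 18 in all, were left aside. By the cross that the design text gives, WT and KO embryos alike carry 1 copy of the Nkx2.1-Cre driver and 1 of the Ai9 Cre reporter, and they differ at the floxed Ezh2 allele. Ezh2 is deleted only where Nkx2.1-Cre has acted, so cells in the dissection from outside that lineage keep the gene. The MGE was dissected whole at E12.5, whereas at E15.5 its fluorescent (Tom+) part was cut out under fluorescence, and tissue from embryos of one genotype could be combined. The stages therefore differ in dissection as well as in age, and these cannot be told apart.

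H3K27me3 is laid down by Polycomb repressive complex 2, in which EZH2 or its relative EZH1 is the methyltransferase, and broad domains of it cover developmental genes that a cell lineage keeps silent. The ganglionic eminences are adjacent swellings of the ventral forebrain. The MGE, specified by Nkx2-1, gives rise to somatostatin and parvalbumin interneurons, the LGE to striatal projection neurons and olfactory bulb interneurons, and the CGE to further classes of cortical interneuron. Gsx2 and Gsx1 act in progenitors, and Gsx2 is needed for LGE identity. Ebf1, Meis1 and Meis2 are expressed in neurons born from the LGE, with Ebf1 needed in the striatal projection neurons of the direct pathway. Nr2f1 and Nr2f2, which encode COUP-TFI and COUP-TFII, are prominent in the CGE, and Prox1 is kept on in interneurons derived from it. Sp8 marks dorsal LGE and CGE lineages, and Sp9 acts in interneuron and striatal neuron development across the eminences.

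The promoters of 4 members are shown first, because the results turn on Meis1 and Meis2 for genotype and on Gsx2, Meis2 and Sp9 for stage. Each sequence runs from 250 bases before to 50 bases after the first listed start site, 5′ to 3′ on the gene's strand, from RefSeq on GRCm38, with CpG dinucleotides in capitals.
Gsx2 (chr5:75075351-75075650, plus strand): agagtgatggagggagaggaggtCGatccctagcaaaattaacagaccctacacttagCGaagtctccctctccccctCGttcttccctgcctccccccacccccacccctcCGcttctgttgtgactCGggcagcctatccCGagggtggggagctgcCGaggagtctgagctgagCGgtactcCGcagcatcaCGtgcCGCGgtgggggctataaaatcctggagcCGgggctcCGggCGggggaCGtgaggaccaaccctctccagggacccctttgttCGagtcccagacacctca
Meis1 (chr11:19018920-19019219, minus strand): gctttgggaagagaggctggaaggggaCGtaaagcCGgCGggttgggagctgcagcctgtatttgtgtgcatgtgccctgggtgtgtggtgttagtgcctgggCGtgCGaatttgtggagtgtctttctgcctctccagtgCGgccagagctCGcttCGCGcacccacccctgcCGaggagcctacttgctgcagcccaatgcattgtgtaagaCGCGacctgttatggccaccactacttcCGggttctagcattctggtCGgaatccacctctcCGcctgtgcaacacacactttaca
Meis2 (chr2:116064570-116064869, minus strand): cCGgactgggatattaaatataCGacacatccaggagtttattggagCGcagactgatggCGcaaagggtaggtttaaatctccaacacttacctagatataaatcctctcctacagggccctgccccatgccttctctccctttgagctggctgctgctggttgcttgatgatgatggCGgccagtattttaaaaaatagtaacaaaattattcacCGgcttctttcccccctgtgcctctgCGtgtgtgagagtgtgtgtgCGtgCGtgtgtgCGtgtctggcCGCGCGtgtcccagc
Sp9 (chr2:73271676-73271975, plus strand): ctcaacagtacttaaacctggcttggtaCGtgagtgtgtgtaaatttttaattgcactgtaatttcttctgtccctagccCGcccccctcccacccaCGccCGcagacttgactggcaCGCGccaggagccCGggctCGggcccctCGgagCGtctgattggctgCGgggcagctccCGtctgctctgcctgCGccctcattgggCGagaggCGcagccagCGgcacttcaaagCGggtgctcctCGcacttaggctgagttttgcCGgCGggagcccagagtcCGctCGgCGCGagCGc
The number of CpG in these windows is 17 for Gsx2, 15 for Meis1, 13 for Meis2 and 25 for Sp9. The 10 genes have 15 listed promoters with a median of 15 CpG. The median is 13 over 21045 promoters of protein-coding genes and 18 over the 2515 promoters of genes that carried an interval in every library. CpG-rich promoters are the usual docking places of Polycomb complexes in mammals. At least 15 CpG were found in 53.3% of the members' promoters, 47.3% of all promoters and 60.5% of those of genes marked in every library. The members' promoters include up to 3 start sites a gene. The other sets hold fewer promoters than genes, 21045 for 21631 and 2515 for 2519. The medians and shares may therefore not be counted alike, and no difference is read from them. The Meis1 start site lay inside an interval in all WT libraries and in 2 of 3 E15.5 KO libraries, but in 0 of 3 E12.5 KO libraries. The Meis2 start site lay outside any interval in E12.5 KO replicate 2, E15.5 WT replicate 1 and E15.5 KO replicate 1. The first listed start sites of Gsx2 and Sp9 lay inside an interval in all 12 libraries.

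Counts are given here as normalised counts. The whole deposited count of each interval that overlaps the gene's window was summed and brought to a common depth, the mean over libraries. Covered lengths in kb likewise take whole intervals, with their parts beyond the window, while percentages of a window take only the part inside it. The depth of a library, as the mean count per 200 bp window that the deposited scores imply, was lowest (0.0751) in E15.5 WT replicate 1 and highest (0.698) in E12.5 WT replicate 2, and total counts in intervals from 573345 to 6840206. The E12.5 KO libraries (0.212 to 0.272) were less deep than E12.5 WT replicates 2 and 3, and E15.5 WT libraries (0.0751 to 0.150) were less deep than E15.5 KO ones (0.179 to 0.346). Chromosome X held 18.1 to 24.5% of covered bases in the 3 E12.5 KO libraries and 20.9% in E12.5 WT replicate 3, against 0.874 to 5.33% in the other 8, and all 10 members are autosomal. The part of depth and of chromosome X in the results was not tested. Ezh2 carried an interval in 0 libraries, so these data hold no check of its deletion. Of 16 housekeeping genes 0 carried an interval in every library, whereas all 11 MGE genes, 7 of 7 pallium markers and 39 of 39 Hox genes did. Of 8 genes of non-neural cells 3 did, and the vessel genes Pecam1 and Cdh5 and the microglial genes Cx3cr1, Csf1r and Aif1 carried an interval in 0 libraries. H3K27me3 at a gene does not report expression, so these lists do not measure the share of any cell type.

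H3K27me3 intervals covered all 10 members in all 12 libraries, in both genotypes and at both stages. Across the genome 2519 of 21631 genes had an interval in every library and 13252 had one in none. The members fell into those blanketed by 1 domain and those marked in pieces. Gsx1, Nr2f1 and Sp8 lay inside 1 interval in every library, with the whole window covered. That interval spanned 45.6 to 54.6 kb at Nr2f1 (chr13:78188971-78198873, minus strand) and 21.6 to 28.6 kb at Sp8 (chr12:118846288-118852578, plus strand). At Nr2f2 (chr7:70351946-70366746, minus strand) the covered length was 52.0 to 60.6 kb, in 1 interval except in E12.5 KO replicate 3, where it was in 2. Sp9 (chr2:73271926-73275771, plus strand) had 16.8 to 21.6 kb. Gsx2 (chr5:75075601-75077893, plus strand) was covered over its whole window except in E15.5 WT replicate 1, the shallowest library, where 61.7% was covered.

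The long genes were marked in pieces. Over the 390.00 kb of Ebf1 (chr11:44618100-45008096, plus strand) 8 to 26 intervals covered 18.8 to 52.2% of the window. Meis1 (chr11:18880428-19019651, minus strand) had 2 to 6 intervals over 6.81 to 24.4% of its window, and Meis2 (chr2:115861264-116067537, minus strand) had 2 to 6 over 4.20 to 15.47%. Prox1 (chr1:190118035-190170827, minus strand) had 1 to 9 intervals over 22.4 to 64.2%. At Meis1 and Meis2 the regions marked in every library were one around the start site and one at the 3′ end of the gene, while the regions between them were called in some libraries only.

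**Figure D1:**
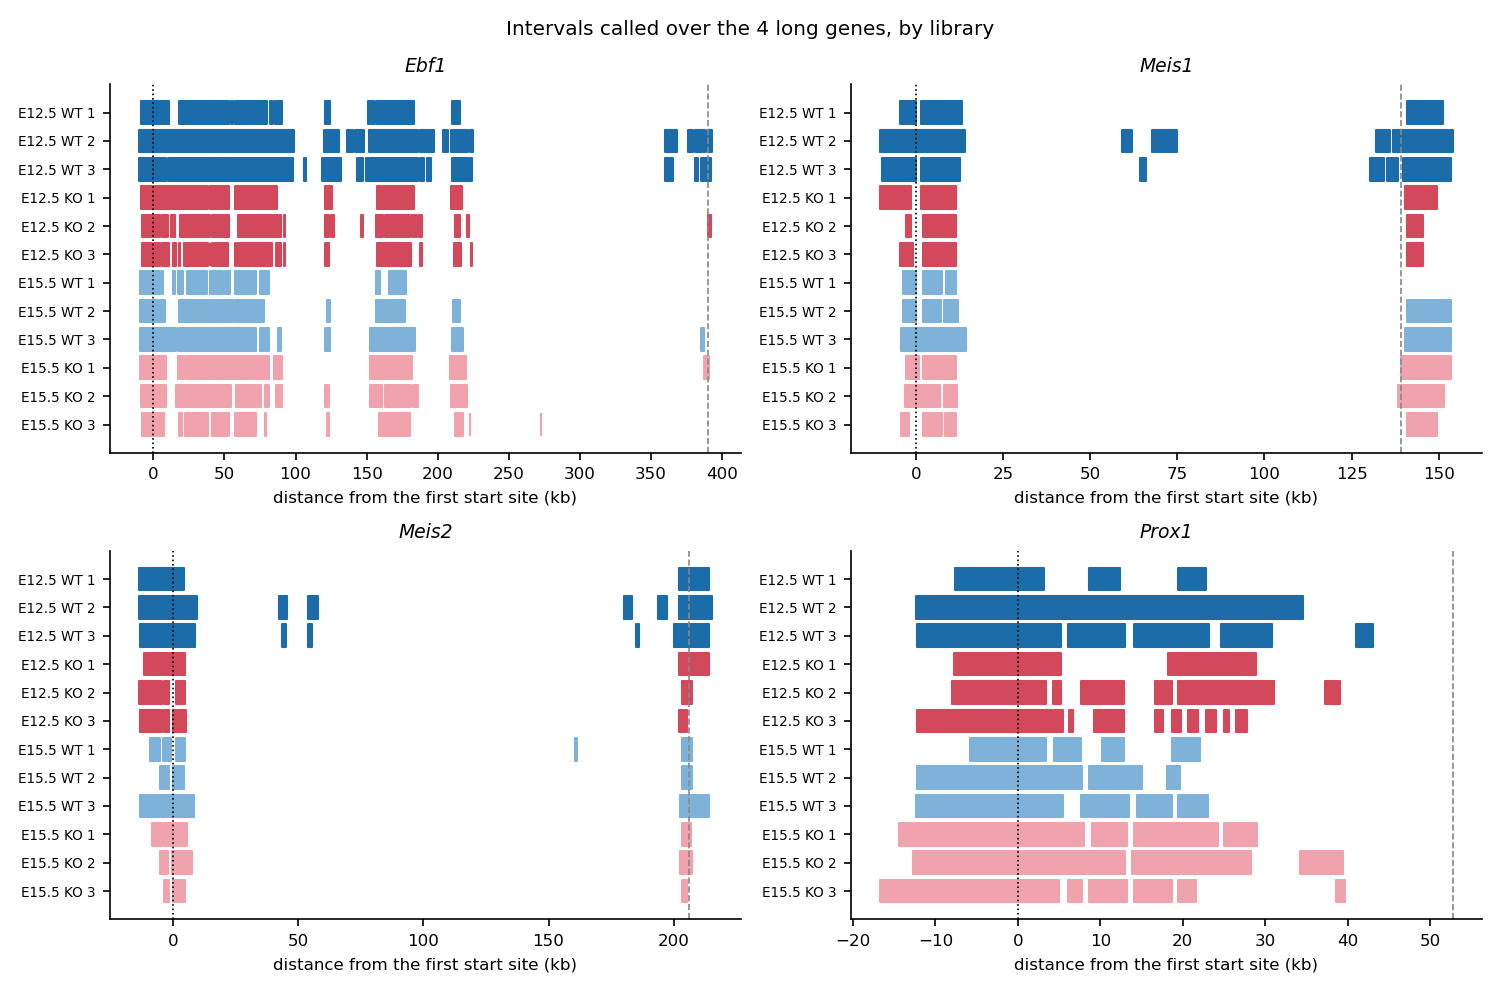
Deposited H3K27me3 intervals at the 4 long genes, 1 row per library, coloured by group; the x axis is distance from the first listed start site in kb, in the direction of transcription, each bar is 1 interval, and the dashed line is the gene's length. Nearly every row shows separate pieces, except that Prox1 has 1 interval of 47.0 kb in E12.5 WT replicate 2, and the long bar at the Ebf1 start belongs to E12.5 WT replicate 2.

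The plot of interval extents shows why covered length needs care: a single interval at the Ebf1 start reached 109.4 kb in E12.5 WT replicate 2, the deepest library. In 10 other libraries 1 interval of 13.0 to 25.2 kb lay there, and in E12.5 KO replicate 3 there were 2 short ones with the first start site between them. Some intervals also cover genes beside a member, and intervals carry no strand. The Prox1 window shares intervals with Prox1os in all 12 libraries. Meis1 shares them with Gm16141 in 12 and with 8430419K02Rik in 11, and Meis2 with G630016G05Rik in 12. Nr2f2 shares them with B130024G19Rik and Gm29683, and Nr2f1 with A830082K12Rik, 3110006O06Rik and Gm38604, in 12 libraries each. Nr2f1 also shares them with the protein-coding gene Fam172a in 11. Meis2 shares them with 2810405F15Rik in 7, and Gsx1 with Gm24556 in 11 and with Plut and Gm38751 in 2 each.

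The density of the mark ordered the members in much the same way in each group. In normalised count per kb of covered sequence, E12.5 WT libraries had 180.0 ± 31.7 (SD, n = 3) at Nr2f2, the highest, then 144 ± 10.9 at Sp8, 93.9 ± 38.1 at Gsx1, 88.1 ± 5.6 at Nr2f1 and 85.9 ± 5.2 at Sp9. Below these came Meis1 with 53.5 ± 14.4 per kb, Ebf1 with 46.8 ± 10.3, Gsx2 with 46.3 ± 2.0, Prox1 with 43.9 ± 17.3 and Meis2 with 32.8 ± 5.8. Of the 9 pairs of neighbours in that order 6 overlapped between libraries, and the steps without overlap were from Nr2f2 to Sp8, from Sp8 to Gsx1 and from Sp9 to Meis1. In E12.5 KO libraries Nr2f2 (169.0 per kb), Sp8 (125.0 per kb) and Gsx1 (122.9 per kb) again led, and 6 of 9 neighbours overlapped. In E15.5 WT libraries the density was 194 per kb at Nr2f2, 174 at Sp8 and 132 at Gsx1, with 7 of 9 neighbours overlapping. In E15.5 KO libraries Sp8 led with 179 per kb, ahead of Nr2f2 with 154, and 4 of 9 neighbours overlapped. Meis2 ranked 10 of 10 in every group, down to 9.2 ± 0.6 per kb in E15.5 KO. Gsx2 was next to it at E15.5, with 23.1 ± 7.9 per kb in WT and 19.6 ± 2.2 in KO.

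Genotype was compared with edgeR's quasi-likelihood test over the 2519 genes with Benjamini-Hochberg adjustment, and every p below named as adjusted comes from it unless another tool is named. The result depends on the scaling. Scaled by depth, the median log2 difference of KO against WT over all genes at E12.5 was -0.58, and scaled by TMM, which sets the bulk of genes near 0, it was -0.012. At E12.5 the depth scaling called 3 of 10 members lower in KO (Ebf1, Meis1 and Meis2) and 0 higher, where 25.3% of all genes tested were called lower and 0.159% higher. The TMM scaling called 0 lower and 1 higher (Sp9), where 2.62% of genes were called lower and 1.63% higher. DESeq2 called 0 lower and 2 higher (Gsx2 and Sp9), where 4.92% of genes were called lower and 3.41% higher. The members' median log2 difference was -0.19 with depth scaling and 0.39 with TMM, each above the median of all genes. Whether fewer cells carried the mark or each cell carried less of it cannot be told apart in bulk tissue. The p-values measure the spread between these libraries, which the labels number as biological replicates without giving the embryos in each.

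At E15.5 the test called 0 of 10 members, as it called 0% of the 2519 genes in each direction, with 3 members and 139 genes at an unadjusted p under 0.05. TMM scaling also called 0 members, and 0.238% of genes lower and 0.516% higher. DESeq2 called 1 member lower, Meis2, and 0 higher, against 1.11% and 1.95% of genes. Averaged over both stages, 2 members were called lower with depth scaling (Ebf1 and Meis2) and 0 higher, against 3.81% and 0.238% of all genes. With TMM scaling 1 was lower (Meis2) and 2 were higher (Gsx1 and Sp9), against 2.7% and 2.94%. For the interaction of genotype and stage 0 members were called, with 2 at an unadjusted p under 0.05, against 0% of genes lower and 0.556% higher. TMM scaling called 0 members as well, against 0% and 0.238% of genes, and so did DESeq2, against 0.198% and 1.51%.

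**Figure D2:**
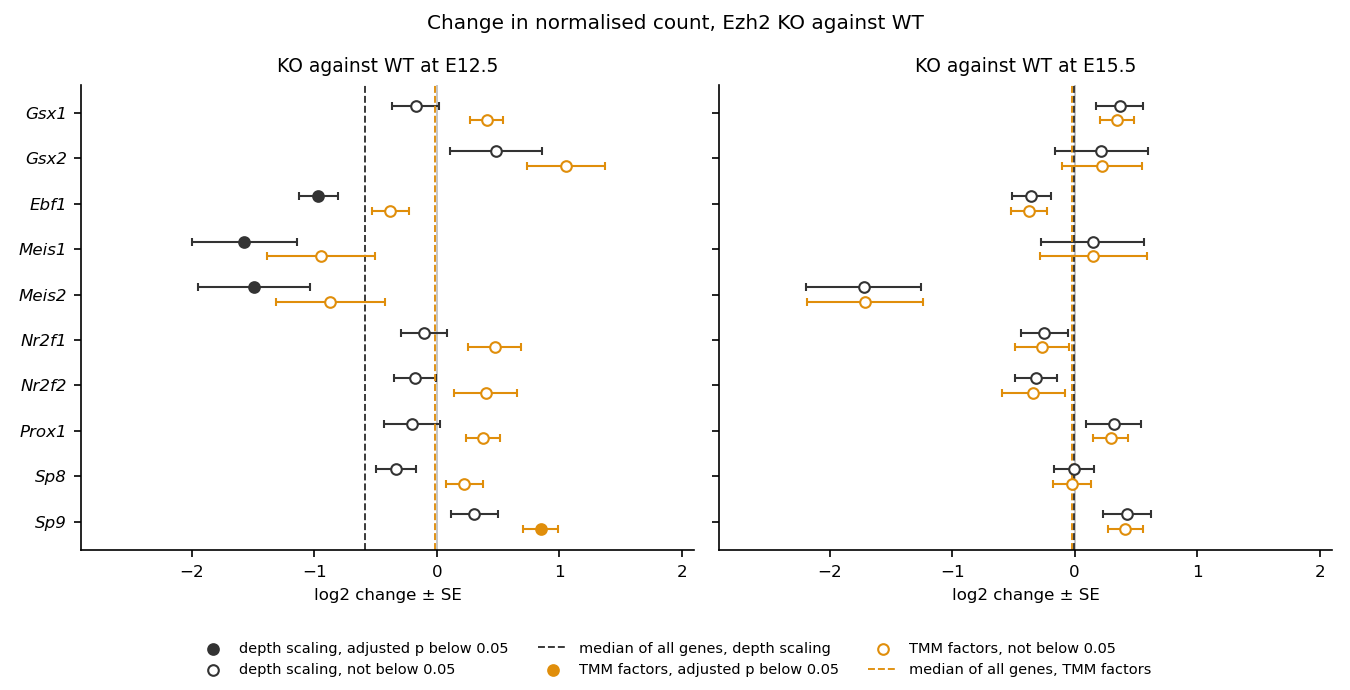
Log2 difference of KO against WT for each member, at E12.5 (left) and E15.5 (right), with depth scaling (dark) and TMM scaling (orange); bars are standard errors, filled points have an adjusted p under 0.05, and dashed lines mark the median of all 2519 genes tested. Ebf1, Meis1 and Meis2 lie below the median of all genes at E12.5 under both scalings, while all other members lie above it, Gsx2 and Sp9 furthest.

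Libraries without overlap between genotypes were counted on the depth-scaled counts. At E12.5 4 members had all 3 KO libraries below all 3 WT libraries (Ebf1, Meis1, Meis2 and Sp8), as 35.5% of genes did, and 0 members had them above, against 0.278% of genes. At E15.5 the KO libraries lay below for 3 members (Ebf1, Meis2 and Nr2f2), as for 8.34% of genes, and above for 2 members (Gsx1 and Sp9), as for 11.4% of genes. In covered bases 1 member did not overlap at E12.5, with KO lower, where 13.6% of genes were lower, and 1 at E15.5, with KO higher, where 8.38% of genes were higher.

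Of the genes of striatal neurons, Ebf1 was lower in KO at E12.5 when scaled by depth, and 1 region inside it was lower under both scalings. It had 7281, 8419 and 8137 normalised counts (WT) against 3445, 4636 and 4131 (KO) at E12.5, and 4881, 5453 and 5727 (WT) against 4516, 4528 and 3526 (KO) at E15.5. On these depth-scaled counts the KO libraries were below every WT library at both stages, with a wide gap at E12.5 and a narrow one at E15.5. The change of the gap with stage was not called. Its interaction was 0.61 (adjusted p = 0.134) with depth scaling and 0.0051 (adjusted p = 0.993) with TMM. The median interaction over all genes tested was 0.60 and 0.019. At E12.5 the group means were 7946 ± 592 (SD, n = 3) in WT and 4071 ± 598 in KO, over 124.4 to 214.8 kb and 103.4 to 127.0 kb of covered sequence, which is 46.8 ± 10.3 and 35.1 normalised counts per kb. The log2 difference at E12.5 was -0.96 (SE 0.161, adjusted p = 0.00387) with depth scaling and -0.38 (adjusted p = 0.175) with TMM, and at E15.5 it was -0.35 (adjusted p = 0.896) and -0.37 (adjusted p = 0.269). Over both stages it was -0.66 (SE 0.113, adjusted p = 0.00664) with depth scaling and -0.38 (adjusted p = 0.066) with TMM.

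Regions were then formed by merging the intervals of the 12 libraries, and those called in all 12 were tested in the same way (2396 regions, an analysis chosen after seeing the data). With depth scaling 38.2% of these regions were called lower in KO at E12.5 and 0.71% higher, and with TMM 7.18% and 3.84%. An intragenic region of Ebf1, 149.70 to 186.50 kb downstream of the start (chr11:44767801-44804600, 36.8 kb), fell in KO at E12.5 under both scalings. Its normalised counts were 714, 1008 and 907 (WT) against 250, 410 and 309 (KO) at E12.5, and 235, 301 and 400 (WT) against 333, 320 and 238 (KO) at E15.5. The E12.5 WT libraries stood above all 9 others, and the other 3 groups overlapped each other. At E12.5 the intervals covered 34.0 kb of it on average in WT and 24.5 kb in KO, at 25.7 ± 2.9 and 13.3 ± 3.3 normalised counts per kb. The log2 difference at E12.5 was -1.44 (SE 0.249, adjusted p = 1.48e-05) with depth scaling and -0.88 (adjusted p = 0.00268) with TMM, and it passed the threshold in 15 of 15 alternatives tried. At E15.5 it was -0.088 (adjusted p = 0.999), and in WT the region fell from E12.5 to E15.5 by 1.48 on the log2 scale (adjusted p = 7.4e-06). The region that holds the Ebf1 start (chr11:44607601-44717000) had 6475, 6904 and 6803 normalised counts (WT) against 3129, 4098 and 3719 (KO) at E12.5. Its difference was -0.88 (adjusted p = 1.87e-05) with depth scaling and -0.34 (adjusted p = 0.178) with TMM, so its call at E12.5 rested on the scaling. Its difference over both stages passed under both, with -0.64 (adjusted p = 1.7e-05) and -0.37 (adjusted p = 0.0413). Of the regions tested 0.376% were called lower and 0.71% higher at E15.5 with depth scaling, and 1.38% and 2.46% with TMM. Over both stages these shares were 10.6% and 1.5% with depth scaling and 6.76% and 5.93% with TMM, and for stage in WT 44.7% and 2.63%, and 22.3% and 16.7%.

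Meis1, a homeobox gene of the TALE class that is a cofactor of HOX proteins, lost mark around its start in the E12.5 KO. Over its whole window the normalised counts were 1863.5, 2251 and 2246 (WT) against 797, 632 and 712 (KO) at E12.5, and 301, 1467 and 1725 (WT) against 1301, 1419 and 1154 (KO) at E15.5. The E12.5 genotypes were far apart, and the E15.5 ones overlapped, with 1 WT library low. In that library, E15.5 WT replicate 1, the interval at the 3′ side ends just outside the gene's window, and 87 raw counts remain. Part of the 3′ region falls outside the window in E12.5 KO replicates 2 and 3 too. There 415 of 684 and 421 of 732 normalised counts of that region were kept. The window also cut the region around the start. At E12.5 818 of 977 normalised counts of it were kept in WT replicate 1, and 217 of 281 and 291 of 360.0 in KO replicates 2 and 3. The other E12.5 libraries kept it whole, and every E15.5 library lost part of it. The E12.5 difference of the gene includes these losses, while the region counts given below do not. At E12.5 the group means were 2120.2 ± 222 and 714 ± 82.9 (SD, n = 3), 53.5 and 36.9 normalised counts per kb. The log2 difference of the gene was -1.57 (SE 0.428, adjusted p = 0.0273) with depth scaling and -0.95 (adjusted p = 0.217) with TMM, and -2.74 (adjusted p = 0.022) over the gene body without its margins. It lost the call without E12.5 WT replicate 2 (adjusted p = 0.087), WT replicate 3 (0.0576), KO replicate 1 (0.0893) or KO replicate 2 (0.112). Without margins, E12.5 WT replicate 2 alone of the E12.5 libraries kept its main 3′ interval (1185 normalised counts). The E12.5 KO libraries also lost their interval upstream of the start. The value of -2.74 therefore includes further loss from the cut of the window.

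The region around the Meis1 start, from -11.03 to 14.37 kb relative to it (chr11:19004601-19030000), held 977, 1012 and 1038 normalised counts (WT) against 257, 281 and 360.0 (KO) at E12.5, and 381, 389.8 and 532 (WT) against 279, 307 and 222 (KO) at E15.5. The KO libraries were below the WT libraries at both stages. Covered length at E12.5 was 22.5 kb in WT and 16.6 kb in KO, with 44.9 ± 3.5 and 18.4 ± 4.8 normalised counts per kb (SD, n = 3). At E12.5 the log2 difference was -1.75 (SE 0.239, adjusted p = 7.88e-08) with depth scaling and -1.23 (adjusted p = 1.3e-05) with TMM, and it passed in 15 of 15 alternatives. At E15.5 it was -0.70 (adjusted p = 0.182) with depth scaling and -0.71 (adjusted p = 0.00968) with TMM. Over both stages it was -1.22 (adjusted p = 1.26e-07) and -0.97 (adjusted p = 5.68e-06).

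The region at the 3′ end of Meis1 (chr11:18864801-18888600) moved less. It held 1046, 1208 and 1199.8 normalised counts (WT) against 540.1, 684 and 732 (KO) at E12.5, and 1010.1, 1181 and 1293 (WT) against 1093, 1189.8 and 1008 (KO) at E15.5. The E12.5 KO libraries alone were low. Covered length there was 17.5 kb in E12.5 WT and 8.27 kb in E12.5 KO, while the density was 71.6 ± 25.1 and 80.4 ± 19.99 per kb. The log2 difference at E12.5 was -0.82 (adjusted p = 0.00309) with depth scaling and -0.28 (adjusted p = 0.128) with TMM, and at E15.5 it was -0.085 (adjusted p = 0.999).

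Meis2, the paralog of Meis1 that is expressed in striatal and olfactory bulb lineages, was lower in KO over both stages under both scalings. Its normalised counts were 1192, 1507 and 1173 (WT) against 535, 339.7 and 504 (KO) at E12.5, and 266, 157 and 823 (WT) against 154, 141 and 86.5 (KO) at E15.5. No KO library reached a WT library of its stage, although E15.5 WT replicate 2 was only just above the highest E15.5 KO library. These E15.5 values rest on few reads, with 77, 78 and 475 raw counts in WT and 106, 117 and 115 in KO. Intervals of the 3′ region that end outside the window are left out of the gene's counts. Kept were 66.8 of 205 normalised counts in E12.5 KO replicate 2 and 68.4 of 343 in replicate 3. In E15.5 WT replicates 1 and 2 it was 96.9 of 214 and 64.3 of 249. The E15.5 KO libraries kept 33.5 of 125, 42.1 of 135 and 15.8 of 97.8. In the E12.5 WT libraries, E12.5 KO replicate 1 and E15.5 WT replicate 3 the whole region was kept. The start region was kept whole in all E12.5 libraries and in E15.5 WT replicate 3. The other E15.5 libraries lost part of it. Among these, WT replicate 2 kept 92.4 of 217 normalised counts, and KO replicates 2 and 3 kept 98.7 of 158 and 70.7 of 108. Covered length was 30.2 to 50.4 kb (WT) and 18.8 to 28.6 kb (KO) at E12.5, and at most 33.4 kb (WT) and 16.4 kb (KO) at E15.5. Over both stages the log2 difference was -1.61 (SE 0.328, adjusted p = 0.0168) with depth scaling, -1.29 (adjusted p = 0.0411) with TMM and, with DESeq2, adjusted p = 0.00157. It passed in 20 of 24 alternatives. It lost the call without E12.5 KO replicate 2 (adjusted p = 0.0563) or E15.5 KO replicate 3 (0.0586). The call was also lost with no margin and with the filter of an interval in at least 9 libraries. At E12.5 alone it was -1.49 (SE 0.457, adjusted p = 0.0373) with depth scaling and -0.87 (adjusted p = 0.256) with TMM, and -2.18 (adjusted p = 0.0419) without the margins. The last value includes further loss from the cut of the window. Without margins, E12.5 KO replicates 2 and 3 lost an interval upstream of the start (165 and 290 normalised counts), and KO replicate 2 also its 3′ interval. The call with depth scaling was lost without any 1 of 5 libraries: E12.5 WT replicate 2 or 3, E12.5 KO replicate 1 or 2, or E15.5 KO replicate 2 (adjusted p from 0.0517 to 0.136). At E15.5 alone it was -1.72 (SE 0.472, adjusted p = 0.366) with depth scaling and -1.71 (adjusted p = 0.118) with TMM, with DESeq2 at adjusted p = 0.0099. Without E15.5 WT replicate 3, the highest of its group, it was -0.73 (adjusted p = 0.884).

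Both regions of Meis2 called in all libraries fell in KO over both stages, by 1.18 (adjusted p = 4.81e-06) and 1.07 (adjusted p = 3.18e-05) on the log2 scale with depth scaling, and with TMM by 0.92 (adjusted p = 9.98e-05) and 0.81 (adjusted p = 0.000797). The 3′ region (chr2:115849201-115864400) held 527, 614 and 530.4 normalised counts (WT) against 244, 205 and 343 (KO) at E12.5, and 214, 249 and 394 (WT) against 125, 135 and 97.8 (KO) at E15.5. All KO libraries were below all WT libraries at each stage. The density was 43.0 ± 4.1 per kb (SD, n = 3) in E12.5 WT against 25.2 ± 7.9 in KO, and 30.2 ± 3.3 in E15.5 WT against 13.4 ± 0.9 in KO, over 13.0, 10.6, 9.33 and 9.0 kb. The log2 difference was -1.08 (adjusted p = 0.00173) at E12.5 and -1.28 (adjusted p = 0.00489) at E15.5 with depth scaling, and -0.55 (adjusted p = 0.036) and -1.30 (adjusted p = 0.00197) with TMM. The start region (chr2:116055201-116078400) held 665, 825 and 614 (WT) against 291, 273 and 436 (KO) at E12.5, and 218, 217 and 429.9 (WT) against 156, 158 and 108 (KO) at E15.5. It was lower in KO by 1.07 on the log2 scale at E12.5 (adjusted p = 0.002) and by 1.06 at E15.5 (adjusted p = 0.0282) with depth scaling. With TMM it was -0.54 (adjusted p = 0.0666) and -1.08 (adjusted p = 0.00968). The E15.5 calls depended on E15.5 WT replicate 3, the highest of its group. Without it the adjusted p was 0.12 for the 3′ region and 0.574 for the start region. The 3′ region also lost its E15.5 call without E15.5 KO replicate 3 (adjusted p = 0.0631), and the start region without E12.5 KO replicate 3 (0.0775), E15.5 KO replicate 1 (0.0654) or E15.5 KO replicate 3 (0.252).

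**Figure D3:**
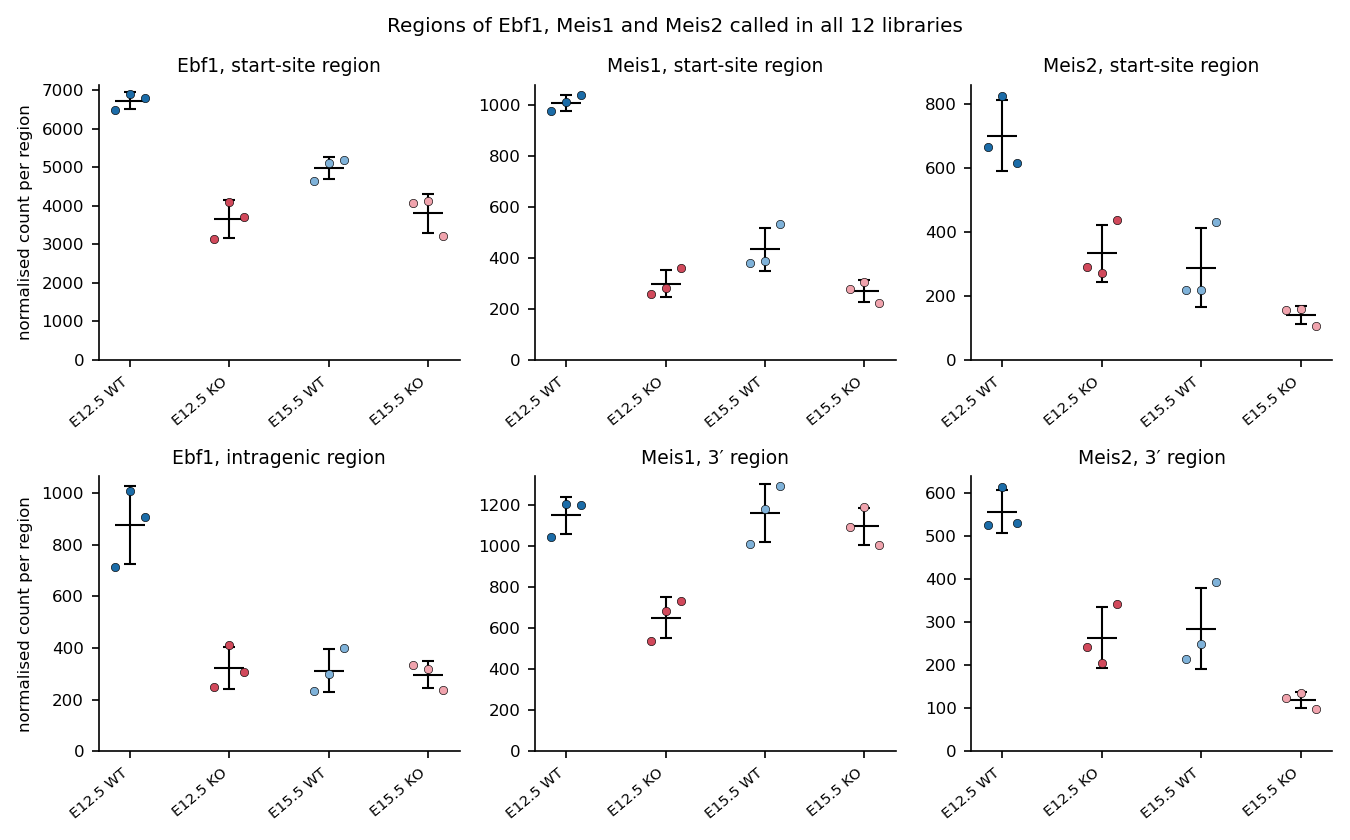
Normalised counts (y axis) of the regions of Ebf1, Meis1 and Meis2 called in all 12 libraries, by group; points are libraries, and the horizontal line and bar are the group's mean and SD. In 5 of the 6 regions, all but the 3′ region of Meis1, the E12.5 WT libraries lie above all libraries of the other 3 groups.

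The plot of regional counts puts the 6 regions side by side. The Meis1 start region averaged 1009 normalised counts in E12.5 WT and between 269 and 434 in the other groups, and the intragenic Ebf1 region 876 against 297 to 323. For these regions the interaction of genotype and stage was past the threshold with depth scaling, as for 0% of regions lower and 5.22% higher, and not with TMM, where 0.209% were called lower and 1.71% higher. The 3′ region of Meis1 had means of 1151 (WT) and 652 (KO) at E12.5 and 1162 (WT) and 1097 (KO) at E15.5. Differences between regions of 1 gene were not tested.

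Of the progenitor genes, Gsx2 differed more between stages than between genotypes. Its normalised counts were 988, 1262 and 929 (WT) against 1266, 1231 and 1962.5 (KO) at E12.5, and 183, 193 and 553 (WT) against 377, 459 and 255 (KO) at E15.5. Every E15.5 library was below every E12.5 library, and the genotypes overlapped at both stages. The means were 1059.8 ± 178 and 1487 ± 413 at E12.5 and 309.7 ± 211 and 364 ± 103 at E15.5 (SD, n = 3), with 53, 96 and 319 raw counts in E15.5 WT. From E12.5 to E15.5 Gsx2 fell by 1.76 on the log2 scale in WT (SE 0.39, adjusted p = 0.00539) and by 2.03 in KO (SE 0.39, adjusted p = 0.00598) with depth scaling. With TMM these were -1.22 (adjusted p = 0.0156) and -2.06 (adjusted p = 0.00116), and both passed in 24 of 24 alternatives. The WT value was -2.49 (adjusted p = 0.00059) without E15.5 WT replicate 3, the highest of its group. The density fell as well, from 46.3 to 23.1 normalised counts per kb in WT and from 60.0 to 19.6 in KO. For genotype at E12.5 the log2 difference was 0.49 (SE 0.375, adjusted p = 0.281) with depth scaling and 1.06 (adjusted p = 0.0953) with TMM, and DESeq2 gave an adjusted p of 0.013.

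Gsx1 (chr5:147188696-147190947, plus strand), the close relative of Gsx2, stayed between 1806 and 3251 normalised counts in the 12 libraries. It had 2406, 3032 and 2413 normalised counts (WT) against 1806, 2674 and 2487 (KO) at E12.5, and 2099.7, 2168 and 2208 (WT) against 2742, 3251 and 2366 (KO) at E15.5. The genotypes overlapped at E12.5, while at E15.5 each KO library was above each WT library. The log2 difference at E12.5 was -0.17 (adjusted p = 0.451) with depth scaling and 0.41 (adjusted p = 0.12) with TMM. At E15.5 it was 0.37 (adjusted p = 0.975) with depth scaling, and it turned to -0.56 (adjusted p = 0.964) when each interval's count was shared out by its overlap with the gene. Over both stages it was 0.10 (adjusted p = 0.615) with depth scaling and 0.38 (adjusted p = 0.0419) with TMM. Its interval was 12.4 to 25.8 kb long in 9 libraries and longer in E12.5 WT replicate 2 (54.2 kb) and E15.5 KO replicates 1 (35.0 kb) and 2 (47.2 kb).

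The CGE genes Nr2f1 and Nr2f2 were densely marked and did not pass the test for genotype. Nr2f2 had 12043, 9184 and 9791 normalised counts (WT) against 8475, 11247 and 7703 (KO) at E12.5, and 10830.5, 10333 and 11103 (WT) against 8947, 9639.9 and 7314 (KO) at E15.5. The E12.5 genotypes overlapped, and the E15.5 KO libraries were all below the WT libraries. The log2 difference was -0.18 (adjusted p = 0.38) at E12.5 with depth scaling and 0.40 (adjusted p = 0.362) with TMM. Nr2f1 had 5074, 4500.3 and 4737 (WT) against 3857, 5463 and 3997 (KO) at E12.5, and 3272, 3857 and 4275 (WT) against 3427, 3645 and 2544 (KO) at E15.5. Its libraries overlapped between genotypes at both stages, and its difference at E12.5 was -0.10 (adjusted p = 0.648) with depth scaling and 0.47 (adjusted p = 0.213) with TMM.

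Prox1, a homeobox gene, was higher at E15.5 than at E12.5 with TMM scaling, and with depth scaling it missed the threshold. It had 1148, 1664 and 1359.8 normalised counts (WT) against 823, 1463 and 1350.4 (KO) at E12.5, and 1813, 1543 and 1706 (WT) against 2109, 2409.7 and 1786 (KO) at E15.5. All E15.5 KO libraries were above all E12.5 KO libraries. The log2 difference of E15.5 against E12.5 in KO was 0.79 (SE 0.229, adjusted p = 0.052) with depth scaling and 0.78 (adjusted p = 0.00255) with TMM. In WT it was 0.28 (adjusted p = 0.337) with depth scaling and 0.86 (adjusted p = 0.00159) with TMM. For genotype at E12.5 it was -0.20 (adjusted p = 0.469) with depth scaling and 0.38 (adjusted p = 0.162) with TMM.

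Sp8 and Sp9, zinc finger genes of the same family, moved in opposite directions with stage in the KO libraries. Sp8 had 3519, 3506 and 3328 normalised counts (WT) against 2184, 3052 and 2974 (KO) at E12.5, and 4272, 4189 and 4462 (WT) against 4049, 4906 and 3934 (KO) at E15.5. Every E15.5 library was above every E12.5 library. In KO the log2 difference of E15.5 against E12.5 was 0.65 (SE 0.164, adjusted p = 0.0269) with depth scaling and 0.62 (adjusted p = 0.0127) with TMM. It passed in 21 of 24 alternatives. The call was lost without E15.5 KO replicate 1 or 2 (adjusted p = 0.0624 and 0.123) and with counts shared by overlap. In WT the stage difference of Sp8 was 0.32 (adjusted p = 0.131) with depth scaling and 0.87 (adjusted p = 0.00212) with TMM. For genotype at E12.5 Sp8 had -0.33 (adjusted p = 0.11) with depth scaling and 0.23 (adjusted p = 0.389) with TMM.

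Sp9 had 1762, 1769 and 1766 normalised counts (WT) against 1549, 2390.05 and 2619.6 (KO) at E12.5, and 969, 916 and 989.8 (WT) against 1202, 1438 and 1233 (KO) at E15.5. Every E15.5 library was below every E12.5 library, and the E15.5 KO libraries were above the WT ones. The stage difference was -0.88 (SE 0.197, adjusted p = 0.00565) in WT and -0.76 (SE 0.196, adjusted p = 0.0294) in KO with depth scaling. With TMM it was -0.33 (adjusted p = 0.0932) in WT and -0.76 (adjusted p = 0.00265) in KO. The KO call with depth scaling was lost in 7 of 12 leave-outs of 1 library: E12.5 WT replicate 3, E12.5 KO replicates 2 and 3, E15.5 WT replicate 1 and E15.5 KO replicates 1, 2 and 3 (adjusted p from 0.0501 to 0.117). For genotype at E12.5 Sp9 had 0.31 (SE 0.195, adjusted p = 0.196) with depth scaling, 0.85 (adjusted p = 0.0067) with TMM and an adjusted p of 6e-06 with DESeq2. Over both stages it was 0.37 (adjusted p = 0.128) with depth scaling and 0.63 (adjusted p = 0.00381) with TMM.

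**Figure D4:**
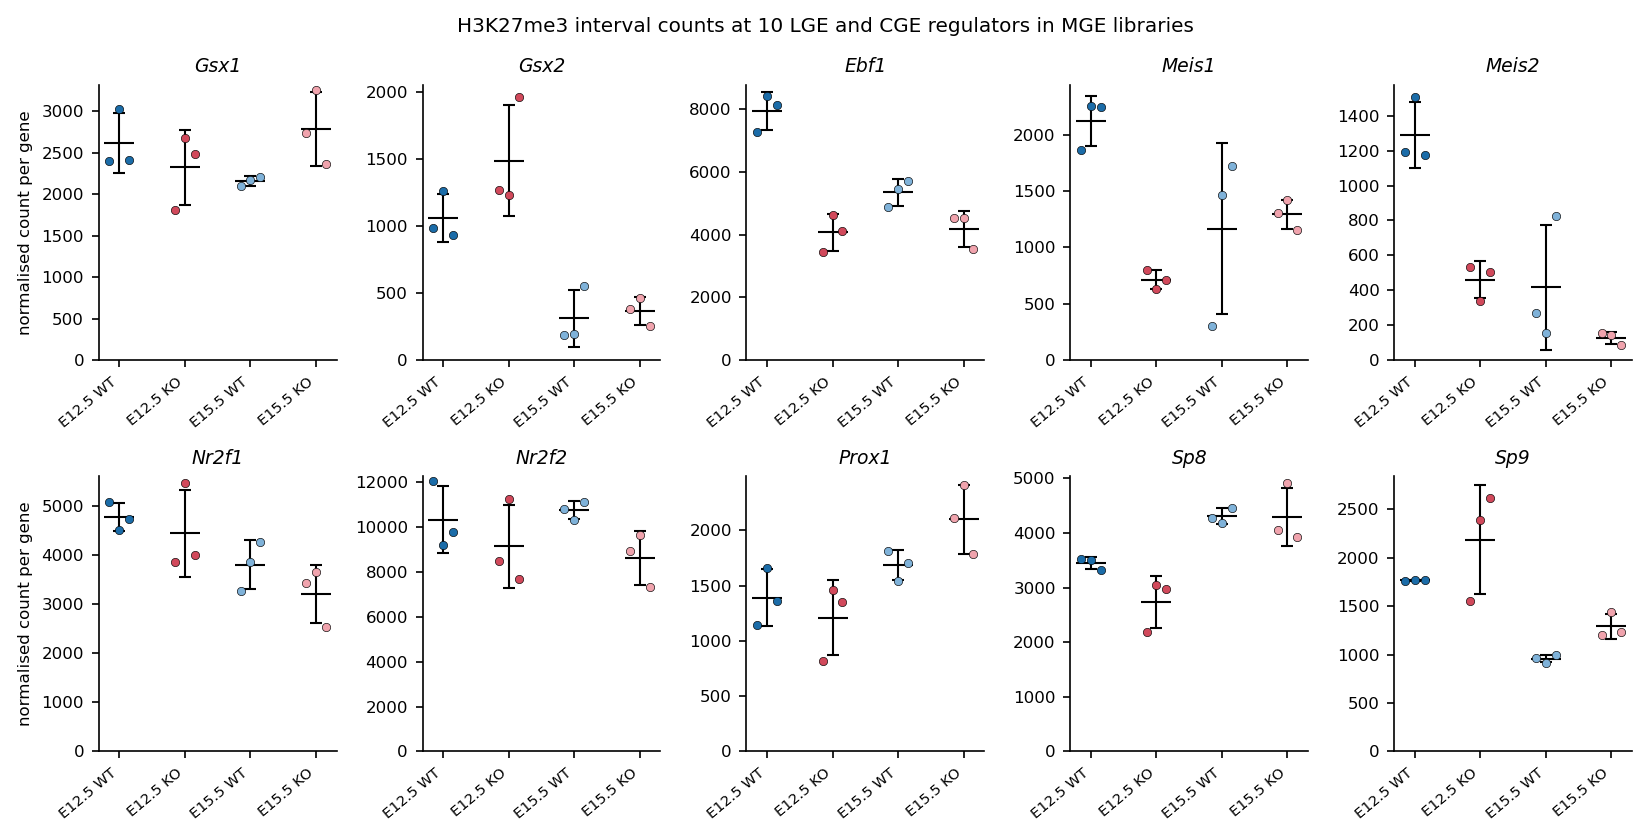
Normalised counts (y axis, linear from 0) of the 10 members by group; points are libraries, and the horizontal line and bar are the group's mean and SD. Gsx2 and Sp9 have all E15.5 libraries below all E12.5 libraries, and Sp8 has them above.

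Across stages, the WT comparison with depth scaling called 4 of 10 members lower at E15.5 (Gsx2, Ebf1, Meis2 and Sp9) and 0 higher, where 37.2% of genes were called lower and 1.27% higher. The median of all genes was -0.59 and that of the members -0.45. With TMM 1 member was lower (Gsx2) and 2 were higher (Sp8 and Prox1), against 16.6% and 16.2% of genes, with medians of -0.0055 and 0.10. Ebf1 had -0.57 (adjusted p = 0.0149) with depth scaling and -0.0082 (adjusted p = 0.976) with TMM, and Meis2 had -1.63 (SE 0.462, adjusted p = 0.0156) and -1.10 (adjusted p = 0.0842). The WT calls were lost for Ebf1 without E12.5 WT replicate 2 (adjusted p = 0.061), E15.5 WT replicate 1 (0.076) or E15.5 WT replicate 2 (0.0525), and for Meis2 without E15.5 WT replicate 1 (0.0769) or 2 (0.0502). Without E15.5 WT replicate 3 Meis2 had -2.62 (adjusted p = 0.00061). As given above, the Meis2 window left out part of the 3′ region and of the start region in E15.5 WT replicates 1 and 2.

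In the KO libraries 3 members were called lower at E15.5 (Gsx2, Meis2 and Sp9) and 1 higher (Sp8) with depth scaling, against 3.1% and 4.37% of all genes. With TMM 3 were lower and 2 higher, against 10.4% and 12.9%. Here the scalings gave nearly the same median over all genes, -0.016 and -0.024. Meis2 had -1.86 (SE 0.47, adjusted p = 0.0274) with depth scaling and -1.94 (adjusted p = 0.0119) with TMM. It had -1.20 (adjusted p = 0.0128) with margins of 10000 bp, -1.31 (adjusted p = 0.282) with none and -1.02 (adjusted p = 0.0841) with counts shared by overlap. Its call with depth scaling was lost without any 1 of 5 libraries, E12.5 KO replicate 1 or 3 or E15.5 KO replicate 1, 2 or 3 (adjusted p from 0.0537 to 0.107). Without overlap between stages, 7 members were lower and 1 higher (Sp8) in WT, as were 53.5% and 3.61% of genes, and 4 were lower (Gsx2, Meis2, Nr2f1 and Sp9) and 3 higher (Meis1, Sp8 and Prox1) in KO, as were 12.1% and 12.8% of genes. In covered bases 0 members were without overlap, against 15.4% of genes lower and 0.159% higher in WT and 3.41% and 9.37% in KO.

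**Figure D5:**
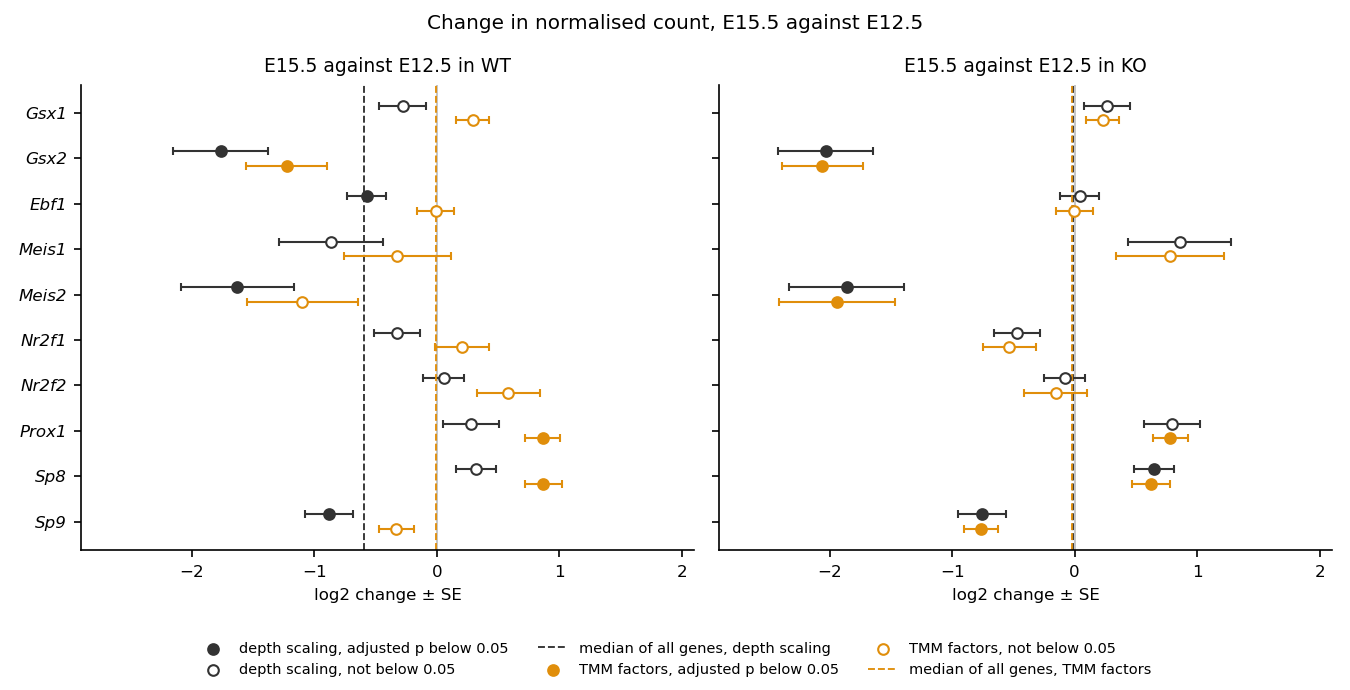
Log2 difference of E15.5 against E12.5 for each member, in WT (left) and KO (right) libraries, with depth scaling (dark) and TMM scaling (orange); bars are standard errors, filled points have an adjusted p under 0.05, and dashed lines mark the median of all genes tested. Gsx2, Meis2 and Sp9 lie below the median of all genes in both genotypes under both scalings, and Gsx1, Sp8 and Prox1 lie above it.

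Other genes of the eminences give the setting for the members. Of 15 tested genes on a list of further LGE or CGE genes, 5 were called lower and 0 higher in KO at E12.5 with depth scaling, and 0 with TMM, and their median log2 difference was -0.63 and -0.065. Over all genes tested the shares were 25.3% lower and 0.159% higher with depth scaling, and 2.62% and 1.63% with TMM. Drd2, the dopamine receptor of indirect-pathway striatal neurons, went from 183 ± 30.7 to 88.3 ± 9.5 normalised counts (SD, n = 3), a log2 difference of -1.06 (adjusted p = 0.0148) with depth scaling and -0.45 (adjusted p = 0.168) with TMM. Zfp503, a zinc finger gene of striatal development, had -0.63 (adjusted p = 0.0286) and -0.071 (adjusted p = 0.854). With stage, Zfp503 rose in WT by 0.58 (adjusted p = 0.0198) with depth scaling and 1.13 (adjusted p = 0.00153) with TMM, and in KO by 0.91 (adjusted p = 0.00621) and 0.87 (adjusted p = 0.00554). Rarb, a retinoic acid receptor gene, fell with stage in WT by 1.76 on the log2 scale (adjusted p = 0.00405) with depth scaling and by 1.16 (adjusted p = 0.0209) with TMM. Lamp5 had -1.07 (adjusted p = 0.00569) and -0.49 (adjusted p = 0.0297) there, and Sall3 -0.80 (adjusted p = 0.00998) and -0.24 (adjusted p = 0.14).

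At E12.5 25.3% of all genes tested were called lower in KO and 0.159% higher with depth scaling, and 2.62% and 1.63% with TMM. Of 7 tested paralogs and partners of the members 1 was called lower and 0 higher in KO at E12.5 with depth scaling, and 0 with TMM. It was Ebf3, with 6895 ± 170.2 normalised counts (SD, n = 3) for WT against 4649.0 ± 686 for KO, a log2 difference of -0.57 (adjusted p = 0.0261) with depth scaling and -0.0069 (adjusted p = 0.986) with TMM. Ebf4 fell with stage in WT by 1.13 on the log2 scale (adjusted p = 0.00752) with depth scaling and by 0.53 (adjusted p = 0.0214) with TMM.

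The genes of the MGE itself included one that went the other way. Of 11 tested, 2 were called lower and 1 higher in KO at E12.5 with depth scaling, and 0 and 1 with TMM. The shares of all genes tested were 25.3% lower and 0.159% higher with depth scaling, and 2.62% and 1.63% with TMM. The gene called higher was Nkx2-1, the regulator that specifies the MGE and whose promoter gives the Cre driver its name. It had means of 1223 ± 347 (WT) and 2822 ± 975 (KO) at E12.5, and 2384 ± 1079 (WT) and 3869.5 ± 737 (KO) at E15.5 (SD, n = 3). Its log2 difference at E12.5 was 1.21 (SE 0.335, adjusted p = 0.029) with depth scaling and 1.77 (adjusted p = 0.00835) with TMM. Maf, an interneuron factor, went from 60.6 ± 9.0 to 17.99 ± 1.7 normalised counts at E12.5, with -1.73 (adjusted p = 0.0118) with depth scaling and -1.12 (adjusted p = 0.126) with TMM. Sst, the somatostatin gene, went from 67.4 ± 10.5 to 33.3 ± 11.5, with -1.04 (adjusted p = 0.032) and -0.45 (adjusted p = 0.3). Gbx1 rose with stage in KO by 0.85 (adjusted p = 0.0226) with depth scaling, and it was called with stage in WT as well. Lhx6, the interneuron factor downstream of Nkx2-1, had a stage difference of -0.69 (adjusted p = 0.0118) in WT with depth scaling and -0.14 (adjusted p = 0.568) with TMM. Of 7 pallium markers 3 were called lower and 0 higher in KO at E12.5 with depth scaling, and 0 with TMM. The shares of all genes to set beside them are those just given for the MGE genes.

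The pattern over the 12 libraries was compared between members and with all other genes tested. Each log2 normalised count was taken relative to the median of its library, and Pearson's r over 12 libraries is a description, since libraries share depth and group. Among the members the highest r was 0.933, between Sp8 and Prox1, followed by 0.866 for Gsx1 and Prox1 and 0.862 for the paralogs Nr2f1 and Nr2f2. The lowest was -0.795, between Meis2 and Prox1. On other chromosomes the gene most alike was Onecut2 for Sp8 (0.992), Pax6 for Nr2f2 (0.989), Msx3 for Sp9 (0.983), Id3 for Prox1 (0.976) and Rpp25 for Gsx2 (0.975). It was Bcan for Gsx1 (0.955), Hoxc13 for Nr2f1 (0.946), Tmem132e for Meis2 (0.878), Rora for Meis1 (0.816) and Gli2 for Ebf1 (0.776).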

How the data were processed

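Intervals were deposited separately for the 12 libraries, without pooling of replicates. The authors deposited a count for each interval, a whole number that is not normalised. The score, also deposited by the authors, was used to recover depth and to rank intervals. The submitters' processing notes name cutadapt, Bowtie2, SAMtools, Picard, deepTools and SICER and the builds GRCm38 and mm10. Their settings, and what a count is made of, are not given in the sources used here. For intervals of a single 200 bp window the score is minus the natural logarithm of the chance that a Poisson variable takes the observed count, with 1 mean for each library. That mean was taken as depth, and its proportionality to total reads is an assumption. Intervals lie at least 800 bp apart.

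Whole counts of the intervals that overlap GRCm38 gene bodies with 2500 bp on either side, from RefSeq, were summed per gene. The build was checked on 39 Hox genes, of which 39 carried an interval and at most 15 did after shifts of 500000 or 1000000 bp. Genes with an interval in every library (2519) were fitted with edgeR 4.0.16 in R 4.3.3 (quasi-likelihood, 4 group means, Benjamini-Hochberg, adjusted p under 0.05), with library sizes proportional to depth. A normalised count is the count times 0.2599, the mean depth, over the library's depth. Alternatives were TMM factors, DESeq2 1.42.0, margins of 0 and 10000 bp, other filters on low counts, intervals shared by overlap, the 5000 highest-scoring intervals, autosomes, each stage alone, merged regions, a block for replicate numbers, and each library left out in turn. On simulated counts for the 2519 genes at E12.5, 13.5% of genes changed 2-fold and 97.5% of genes changed 4-fold were recovered. The simulation changed 200 genes, as many up as down, and held no shift of the median such as the -0.58 seen at E12.5. Recovery in the data themselves can therefore differ.

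The members and lists were chosen with earlier results of these data known. Named beyond the members are up to 5 genes a list past the threshold in any contrast by smallest p, Nkx2-1 and Ezh2, the gene most alike each member, and genes that share its intervals. Python 3.11.15 was used for sums and figures.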

Additional observations from a re-analysis of the deposited data

Results flagged for a closer look

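The genotype difference of 2 regions differed between stages by a test of the interaction, among 2396 regions of which 0% were called lower and 5.22% higher with depth scaling. For the intragenic Ebf1 region the interaction was 1.35 on the log2 scale (SE 0.353, adjusted p = 0.0136, edgeR), the difference of KO against WT being -1.44 at E12.5 and -0.088 at E15.5. All 3 E12.5 KO libraries were below all 3 E12.5 WT libraries, and the E15.5 genotypes overlapped. It was past the threshold in 10 of 12 leave-outs, with an adjusted p of 0.0814 once E15.5 WT replicate 1 was removed and 0.059 once E15.5 KO replicate 1 was. With TMM scaling it was 0.77 (adjusted p = 0.134), where 0.209% of regions were called lower and 1.71% higher.

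For the Meis1 start region the interaction was 1.06 on the log2 scale (SE 0.334, adjusted p = 0.048, edgeR), from -1.75 at E12.5 and -0.70 at E15.5. It was past the threshold in 5 of 12 leave-outs, with adjusted p up to 0.156, and with TMM scaling it was 0.52 (adjusted p = 0.176). The 7 libraries without which it was not past were E12.5 WT replicates 2 and 3, E12.5 KO replicate 2, E15.5 WT replicates 1 and 2 and E15.5 KO replicates 1 and 2. The median of all genes tested was 0.60 for this interaction with depth scaling and 0.019 with TMM.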

How the results depend on the processing

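Counts of genes called moved with the processing. At E12.5 the 641 genes called for genotype became 107 with TMM, 210 with DESeq2, 319 with counts shared by overlap, 183 with an interval in at least 9 libraries, 108 with each stage alone, 264 with merged regions and TMM, and 58 to 1618 when 1 library was left out. Members called there were 3 (3 lower, 0 higher), or 1 with TMM (0 lower, 1 higher), 2 with DESeq2 (0 lower, 2 higher), 3 with merged regions and TMM (1 lower, 2 higher), 1 with at least 9 libraries and 1 to 3 with a library left out. At E15.5 the 0 genes became 19 with TMM, 77 with DESeq2, 1 with shared counts, 2 with a margin of 10000 bp, 11 with at least 9 libraries, 3 with the 5000 highest-scoring intervals, 14 with each stage alone, 26 with merged regions, 92 with these and TMM, and 0 to 5 with a library left out. Members called were 0, or 1 with DESeq2, 1 with merged regions, 2 with these and TMM, and 0 with any 1 library left out. Over both stages the 102 genes became 203 with DESeq2, 54 with at least 9 libraries, 290 with merged regions, 304 with these and TMM, and 37 to 852 with a library left out. The 2 members, both lower, became 4 with DESeq2 (2 lower, 2 higher), 1 with no margin, 1 with at least 9 libraries, 6 with merged regions and TMM (3 lower, 3 higher), and 1 to 3 with a library left out. The 14 genes of the interaction became 6 with TMM, 43 with DESeq2, 24 with shared counts, 25 with the wider margin, 125 with merged regions, 46 with these and TMM, and 0 to 950 with a library left out, and its 0 members became 1 with merged regions. For stage in WT, 970 genes became 495 to 1191 and 4 members 2 to 5 with a library left out. In KO the 188 genes became 588 with TMM, 696 with DESeq2, 425 with merged regions, 789 with these and TMM, and 90 to 314 with a library left out. Its 4 members became 2 with shared counts and 1 to 5 with a library left out. Members without overlap in covered bases were 1 at E12.5 and 2 with the wider margin or as a share of autosomal covered bases. At E15.5 they were 1, and 0 with the 5000 highest-scoring intervals or as that share. The shares of all genes are given here for the main setting only, 13.6% lower at E12.5 and 8.38% higher at E15.5. The counts under the other settings therefore cannot be read as a result about the members. The cause was not tested.

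Of values called in either fit, directions reversed for Meis1 at E15.5, from 0.15 to -0.71 with merged regions and TMM, where the start region stands for the gene. They reversed for Ebf1 with stage in WT, to 0.018 with DESeq2 and 0.067 with merged regions and TMM, and for its start region to 0.067 with TMM and 0.16 with DESeq2. Of 1460 values of single members, 85 that were called in neither fit changed sign: 16 with DESeq2, 15 with TMM, 17 with merged regions and TMM, 3 with merged regions, 11 with counts shared by overlap, 1 and 2 with the wider and no margin, and 20 with a library left out. The replicate numbers did not pair the libraries: deviations of same-numbered libraries correlated at 0.22, -0.002 and 0.08 at E12.5 and at -0.22, -0.19 and -0.35 at E15.5. With the replicate number as a block, the interaction called 22 genes and E15.5 1 gene. With 3 libraries a group and no shift of the median, simulated 2-fold changes were recovered for 13.5% of changed genes at E12.5 and 14% at E15.5. For 4-fold changes it was 97.5% and 95%, out of 2519 genes. What the depth of single libraries takes from this was not tested.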
